A study of Mus musculus with 4 samples.

Results

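Motile cilia genes were read in tumours of the lung from KP mice, which develop lung adenocarcinoma once Cre recombinase is delivered to the airways. The list held 39 genes of motile cilia and of the programme that builds them. They were chosen by their known function, but with earlier results of these data known. Of the 39 genes, 38 had a probe on the array that could be named, and 31 were bright enough to be tested, out of 16443 genes tested in all. Dnah3 had no named probe and is not analysed here. The samples were 2 tumour RNAs from CD109+/+ KP mice, both female, and 2 from CD109-/- KP mice, a male (replicate 1) and a female (replicate 2). All mice were of strain C57BL/6J and received Cre in an adenovirus through the trachea 88 to 92 days before RNA was taken. The sources used here do not give the viral promoter, the KP alleles or the kind of CD109 allele. Whether each replicate came from its own animal is not stated in the labels, and p-values therefore measure only the spread between these samples, which may be technical.

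A motile cilium is a whip of microtubules that beats because dynein arms, fixed along the outer doublets, slide neighbouring doublets past each other. Radial spokes, a central pair of microtubules and the nexin-dynein regulatory complex turn that sliding into a wave. In the airway, such cilia stand in bundles on multiciliated cells and move mucus towards the throat. The programme runs from Mcidas, which starts the making of many basal bodies together with Ccno, to Foxj1 and the RFX factors, which switch on the genes of the axoneme. Alveolar cells, from which KP tumours mainly grow, do not carry such bundles.

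RFX factors bind sequences known as X-boxes in promoters of ciliary genes, and Foxj1 is a forkhead factor. The promoters are therefore shown first, because most of the genes with a window hold these letters and the list was not chosen by them. RefSeq promoter windows of build GRCm38.p6, running from 250 bases before to 50 after each start, were matched by symbol for 33 of the 39 genes, with 37 windows. The X-box core GTTGCC was found, on either strand (GGCAAC), in 22 of the 33 genes, or 23 of the 37 windows (62.2%), against 12.5% of all 32851 windows of that length. A longer and looser spaced X-box form, searched on both strands, stood in 12 windows (32.4%), against 4.62% of all windows, and it can overlap the core. The forkhead letters TGTTTAC or GTAAACA stood in 4 windows (10.8%), against 3.65%. A match of letters is a description and does not show that a factor binds there.

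The 250 bases before the start are given for 6 genes, 5 of them from the groups of regulators, dyneins and apical proteins, and Tekt1, which was chosen after its values were seen. They are Ccno at chr13:112987552-112987801 (plus strand), Dynlrb2 at chr8:116504765-116505014 (plus strand), Dnah2 at chr11:69549109-69549358 (minus strand), Cdhr3 at chr12:33092876-33093125 (minus strand), Sntn at chr14:13670626-13670875 (plus strand) and the first of 2 Tekt1 windows at chr11:72361883-72362132 (minus strand). Each runs 5′ to 3′ along the gene, and capitals mark the RFX letters and, in Sntn, also the forkhead letters.
Ccno: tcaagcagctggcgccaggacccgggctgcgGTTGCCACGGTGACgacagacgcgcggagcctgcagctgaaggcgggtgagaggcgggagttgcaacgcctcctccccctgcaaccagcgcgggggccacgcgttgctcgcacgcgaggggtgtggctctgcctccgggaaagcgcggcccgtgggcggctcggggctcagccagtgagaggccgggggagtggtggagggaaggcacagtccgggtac
Dynlrb2: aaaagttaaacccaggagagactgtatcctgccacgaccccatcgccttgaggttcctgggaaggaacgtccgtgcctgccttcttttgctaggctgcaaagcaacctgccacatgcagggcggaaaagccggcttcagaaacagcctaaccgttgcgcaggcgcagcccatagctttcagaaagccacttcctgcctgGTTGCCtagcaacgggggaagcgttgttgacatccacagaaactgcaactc
Dnah2: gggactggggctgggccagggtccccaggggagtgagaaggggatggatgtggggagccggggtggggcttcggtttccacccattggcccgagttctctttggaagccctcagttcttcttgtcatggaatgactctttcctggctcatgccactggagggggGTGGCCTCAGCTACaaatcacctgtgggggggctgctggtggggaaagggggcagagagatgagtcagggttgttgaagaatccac
Cdhr3: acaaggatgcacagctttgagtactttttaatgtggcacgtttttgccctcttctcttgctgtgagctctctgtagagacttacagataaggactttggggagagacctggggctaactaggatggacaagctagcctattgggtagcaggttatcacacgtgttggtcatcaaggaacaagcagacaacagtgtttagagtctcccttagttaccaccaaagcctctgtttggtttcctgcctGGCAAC
Sntn: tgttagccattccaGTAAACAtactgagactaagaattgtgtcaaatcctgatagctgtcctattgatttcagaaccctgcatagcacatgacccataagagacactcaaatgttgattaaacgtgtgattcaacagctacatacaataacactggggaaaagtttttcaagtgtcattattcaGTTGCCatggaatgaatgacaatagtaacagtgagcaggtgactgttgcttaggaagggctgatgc
Tekt1: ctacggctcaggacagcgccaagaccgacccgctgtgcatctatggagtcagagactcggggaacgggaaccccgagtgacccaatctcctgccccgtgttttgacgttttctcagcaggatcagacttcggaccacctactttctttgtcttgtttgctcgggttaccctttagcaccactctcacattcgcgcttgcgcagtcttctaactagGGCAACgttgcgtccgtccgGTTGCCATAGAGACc
The first base of the match lay 219 bases before the start in Ccno, 51 in Dynlrb2, 86 in Dnah2 and 6 in Cdhr3. In Sntn the core began 66 and the forkhead letters 236 bases before the start. Tekt1 held a core 35 bases and another 15 bases before its start, and the second of these was part of the spaced form. All 6 promoters shown hold RFX letters, whereas the core was found in 22 of the 33 genes, and Dnah2 holds only the spaced form.

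Values are log2 of the processed signal minus the 75th percentile of the array, so a difference of 1 is a change of 2-fold. The 75th percentile lay between 557 and 688 signal units over the 4 arrays, with 64.3% to 67.0% of spots well above background and 0 saturated. The targeted gene, Cd109, gave -3.70 and -4.66 on the CD109+/+ arrays and was not well above background on either CD109-/- array. Its signal was at least 2.92-fold higher in CD109+/+ tumours, against the lowest signal well above background on the CD109-/- arrays. With normexp background correction its difference was -0.72, against -3.74 here, less than that bound. Whether the probe lies in the deleted part was not examined. Sftpc, the surfactant gene that defines alveolar type 2 cells, was bright on all arrays (9.11, 8.96, 8.92 and 8.79 in CD109+/+ replicates 1 and 2 and CD109-/- replicates 1 and 2, the order used for values throughout).

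The genes of motile cilia differed widely between arrays, and in 28 of the 31 the CD109 genotypes overlapped. Both CD109-/- values lay above both CD109+/+ values in 1 of the 31, against 20.3% of all genes. They lay below both in 2 of the 31, against 18.3% of all genes. CD109-/- replicate 2 gave the highest value for 24 of the 31 genes, against 27.4% of all genes tested. CD109-/- replicate 1 gave the highest value for 0 and the lowest for 16, against 29.5% of all genes with their lowest value there. CD109+/+ replicate 1 was lowest for a further 14, against 23.6% of all genes. The median deviation of the 31 genes from their own 4-array means was -0.37, 0.16, -0.51 and 0.69, whereas over all genes it lay between -0.03 and 0.02 on every array. The array order CD109+/+ replicate 1, CD109-/- replicate 1, CD109+/+ replicate 2, CD109-/- replicate 2, from lowest to highest, was taken by 13 of the 31 genes and by 5.42% of all genes. Among the 29 genes well above background on all 4 arrays it was taken by 11, and among such genes overall by 5.36%. This order was picked out after the values were seen. In bulk tumour RNA, fewer ciliated cells and less ciliary RNA per cell cannot be told apart.

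**Figure D1:**
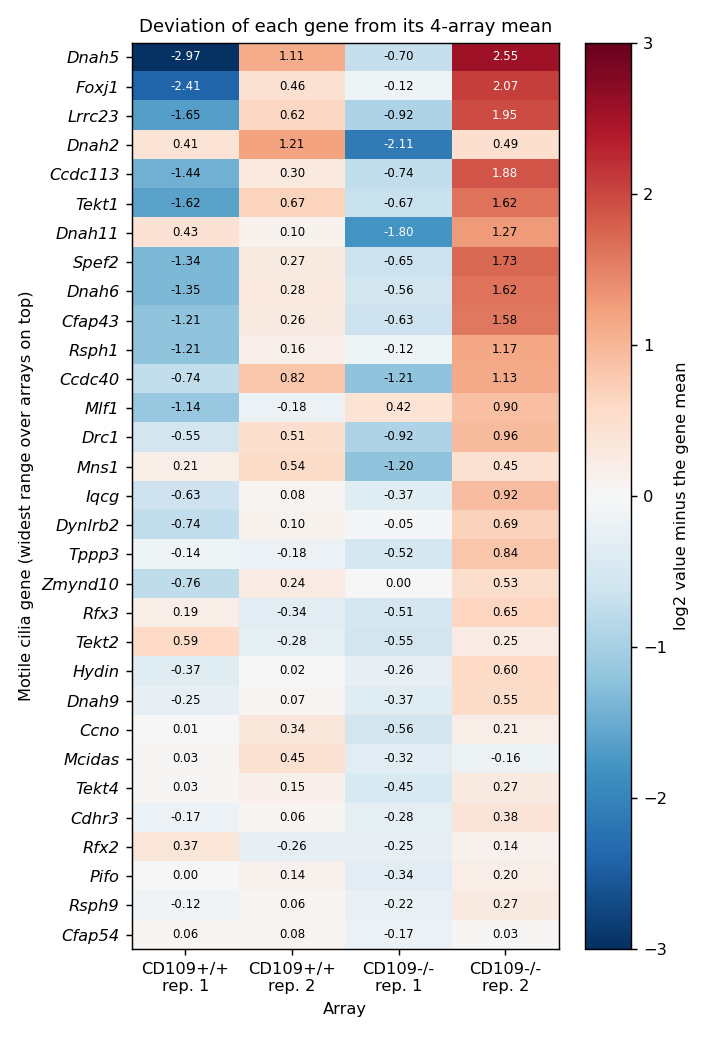
Deviation of each of the 31 tested motile cilia genes (rows) from its own mean over the 4 arrays (columns), in log2 units; red is above and blue below the mean, and rows are ordered by their range. The upper rows are mostly red on CD109-/- replicate 2 and blue on CD109+/+ replicate 1, with deviations from -2.41 to 2.07 in Foxj1, while the lower rows stay near 0. The probes shown for Dnah5 and Spef2 were not well above background on CD109+/+ replicate 1, so their depth there is not measured.

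The genes were not alike in how much they varied. The range of a gene over the 4 arrays had a median of 1.55 among the 31 genes and 0.65 among all genes. It was above 2 in 13 of the 31 (41.9%), against 6.90% of all genes. It was below 1 in 10 of the 31 (32.3%), against 73.5% of all genes. The SD of the deviations over the 31 genes was 0.86, 0.37, 0.51 and 0.69 on the 4 arrays, against 0.43, 0.37, 0.52 and 0.47 over all genes. The genes thus scattered more widely than all genes on CD109+/+ replicate 1 and CD109-/- replicate 2, the arrays at the ends of the order, and about as widely on the other 2. By straight-line distance between 4-array profiles centred on each gene's mean, the members nearest to Foxj1 were Tekt1 (1.09), Lrrc23 (1.12), Dnah5 (1.14), Ccdc113 (1.18) and Dnah6 (1.25), in log2 units over 4 arrays, and the farthest was Dnah2 (3.87). The distance of Dnah5 includes a value that was not well above background.

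Foxj1, the forkhead factor that switches on motile cilia genes, gave -5.23 and -2.35 on the CD109+/+ arrays, and -2.93 and -0.75 on those of CD109-/- tumours. Its 2 genotypes overlapped, since CD109+/+ replicate 2 was above CD109-/- replicate 1, and replicates of 1 genotype differed by more than the genotypes did. The difference, CD109-/- minus CD109+/+, was 1.95 ± 1.22 (limma SE, n = 2 per genotype; limma's adjusted p = 0.771 over all genes). With normexp background correction it was 1.01. Mcidas, which starts multiciliation, gave 4.91, 5.33, 4.56 and 4.72, with both CD109-/- values below both CD109+/+ values and a difference of -0.48 ± 0.25. A second Mcidas probe was not well above background on any array (-7.70, -6.34, -5.84 and -6.02), so the 2 probes named for this gene disagree. Ccno, the cyclin-family protein needed for basal body formation, lay at -3.67, -3.34, -4.23 and -3.47, a range of 0.90 that was narrow beside that of Foxj1. The tested probes of the RFX factors Rfx2 and Rfx3 also varied less between arrays than Foxj1. Rfx2 differed by -0.11 ± 0.32, and Rfx3 by 0.14 ± 0.47 with its highest value, -0.34, on CD109-/- replicate 2. A dimmer Rfx3 probe was highest on CD109+/+ replicate 1 (-3.68), with -5.48 on CD109+/+ replicate 2 and -4.45 on CD109-/- replicate 2. It was not well above background on CD109-/- replicate 1. Of the 5 regulators, Foxj1 alone took the array order named above.

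**Figure D2:**
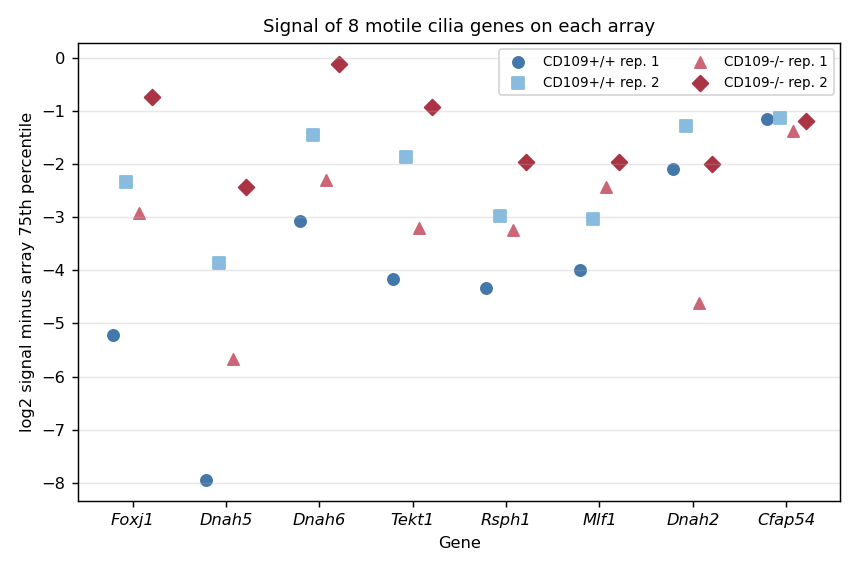
Signal of 8 motile cilia genes (horizontal axis) on each of the 4 arrays, as log2 signal minus the array's 75th percentile; blue symbols are CD109+/+ and red symbols CD109-/- arrays. In Foxj1, Dnah5, Dnah6, Tekt1 and Rsph1 the blue circle of CD109+/+ replicate 1 lies lowest and the dark red diamond of CD109-/- replicate 2 highest, Mlf1 separates the genotypes, Dnah2 is lowest on CD109-/- replicate 1, and Cfap54 is flat.

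The dynein chains are the motors of the axoneme, and 6 of the 7 listed were tested. Dnah5, a heavy chain of the outer arm, gave -7.95, -3.87, -5.68 and -2.43, and its first value was not well above background. With that array at its lowest signal well above background, -5.62, the range of Dnah5 was 3.25 in place of 5.52, below those of Foxj1 (4.48) and Lrrc23 (3.61), and the order of both replicates 1 was not measured. Its difference of 1.85 ± 1.74 was about as large as its error, and was 0.47 with normexp background correction. Dnah6, an inner arm heavy chain, followed the same order at -3.08, -1.45, -2.30 and -0.11, while a dimmer second probe, well above background on both replicates 2 alone, gave -4.91 and -3.28 there. The light chain gene Dynlrb2 kept that order over a narrower range (0.15, 0.99, 0.84 and 1.58). The remaining chains differed from this. Dnah2, an inner arm chain, gave -2.10, -1.29, -4.62 and -2.01, and Dnah11, an outer arm chain, gave -3.11, -3.45, -5.35 and -2.27, so that in both CD109-/- replicate 1 stood more than 1 log2 unit below every other array. Dnah2 had the largest negative difference of the 31 genes, -1.62 ± 0.93, with overlapping genotypes. Dnah9, an outer arm chain, varied by 0.92 with its highest value on CD109-/- replicate 2.

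Radial spoke genes were highest on CD109-/- replicate 2 in each of 3 tested cases. Rsph1, a spoke head component, gave -4.34, -2.97, -3.25 and -1.96 (difference 1.05 ± 0.66). Lrrc23, a protein of the spokes, gave -5.06, -2.78, -4.33 and -1.45 (1.03 ± 1.24). Rsph9, another spoke head component, was nearly flat at 1.10, 1.28, 1.00 and 1.49, and its second probe also ranged little, from -1.74 to -1.32. Genes of the nexin-dynein regulatory complex, the ruler and the dynein tether were also highest on that array in 5 of 5 tested cases. Ccdc113 gave -4.71, -2.97, -4.02 and -1.39. Cfap43, part of the tether of an inner dynein, gave -3.66, -2.18, -3.08 and -0.87. In both, CD109+/+ replicate 2 lay above CD109-/- replicate 1. Drc1, a core subunit of the regulatory complex, gave -1.68, -0.62, -2.05 and -0.17, and Ccdc40, a partner in the ruler that sets the spacing of dyneins, gave -4.96, -3.40, -5.44 and -3.10. For these 2 genes CD109-/- replicate 1 was lowest, and the genotype means differed by 0.04 ± 0.74 and -0.09 ± 0.96. Iqcg of the same complex differed by 0.55 ± 0.53.

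Among central pair genes, the brightest Spef2 probe gave -6.01, -4.40, -5.32 and -2.94, the Foxj1 order, and was not well above background on CD109+/+ replicate 1. A dimmer Spef2 probe was well above background on CD109+/+ replicate 1 (-5.27) and CD109-/- replicate 2 (-5.50) alone. It was highest on CD109+/+ replicate 1, so the Spef2 probes disagree. Hydin kept the Foxj1 order over a range of 0.97. Cfap54 had the narrowest range of the 31 genes, 0.24, with values of -1.16, -1.14, -1.39 and -1.19. A dimmer Cfap54 probe was well above background on both replicates 2 alone (-5.62 and -4.69), so the flat profile belongs to the brightest probe and was not measured for every probe of the gene. Cdhr3, a cadherin of the ciliated cell surface, had probes that differed. Its brightest probe ranged from -4.33 to -3.67, while a second probe, well above background on 3 arrays, gave -6.73, -3.34, -4.52 and -1.92 in the order of Foxj1.

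The tektins line the inside of the doublets. Tekt1 followed Foxj1 at -4.16, -1.88, -3.21 and -0.93 (difference 0.95 ± 1.09), whereas Tekt2 was highest on CD109+/+ replicate 1 (-1.67, -2.54, -2.80 and -2.01) and Tekt4 varied by 0.72. Mns1, a protein inside the microtubules, gave -1.77, -1.44, -3.18 and -1.53, with CD109-/- replicate 1 low as in Dnah2. The tubulin-binding protein gene Tppp3 was highest on CD109-/- replicate 2 at 3.60, with the other arrays between 2.24 and 2.63. Pifo, linked to the primary cilium, ranged over 0.54. Zmynd10, which helps to assemble dynein arms in the cytoplasm, gave -4.18, -3.18, -3.42 and -2.89.

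Mlf1, a gene first known from leukaemia and found in ciliated cells, had both CD109-/- values above both CD109+/+ values. It gave -4.00 and -3.04 on the CD109+/+ arrays, and -2.44 and -1.96 on the CD109-/- arrays, a difference of 1.32 ± 0.41 (unadjusted p = 0.0273 with limma; limma's adjusted p = 0.591 over all genes). Of the 31 genes it alone had an unadjusted p under 0.05. Over all genes, in either direction, the share at that level was 7.41%. The genotypes did not overlap in 1 gene with higher values (Mlf1; 20.3% of all genes) and in 2 with lower values (Mcidas and Cfap54; 18.3% of all genes). In the other 28 genes the genotypes overlapped.

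Between genotypes, no gene passed. With limma, 0 of the 31 genes and 0 of all 16443 (0%) had an adjusted p under 0.05, and 1219 of all genes had an unadjusted p under 0.05. The median difference of the 31 genes was 0.18, with higher means in CD109-/- tumours for 20 and lower for 11, and over all genes the median was 0.003 with 50.3% higher. For any 1 gene, 2 arrays per genotype allow an exact permutation p (two-sided) no smaller than 0.333. The median rested on single arrays. Without CD109-/- replicate 2 it was -0.24, with lower means in 25 of 31 genes, and with CD109-/- replicate 1 left out, so that all arrays were from females, it was 0.98, with higher means in 28. Without CD109+/+ replicate 1 it was 0.02 and without CD109+/+ replicate 2 it was 0.54. The unadjusted p was under 0.05 in 0 genes without CD109+/+ replicate 1, in 2 without CD109+/+ replicate 2, in 8 when CD109-/- replicate 1 was left out and in 3 when its replicate 2 was. Over all genes those shares were 3.36%, 5.54%, 8.50% and 11.7%, and 0 genes passed after adjustment in any of these limma fits. Mlf1 was among the 2 and the 8, and not among the others.

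**Figure D3:**
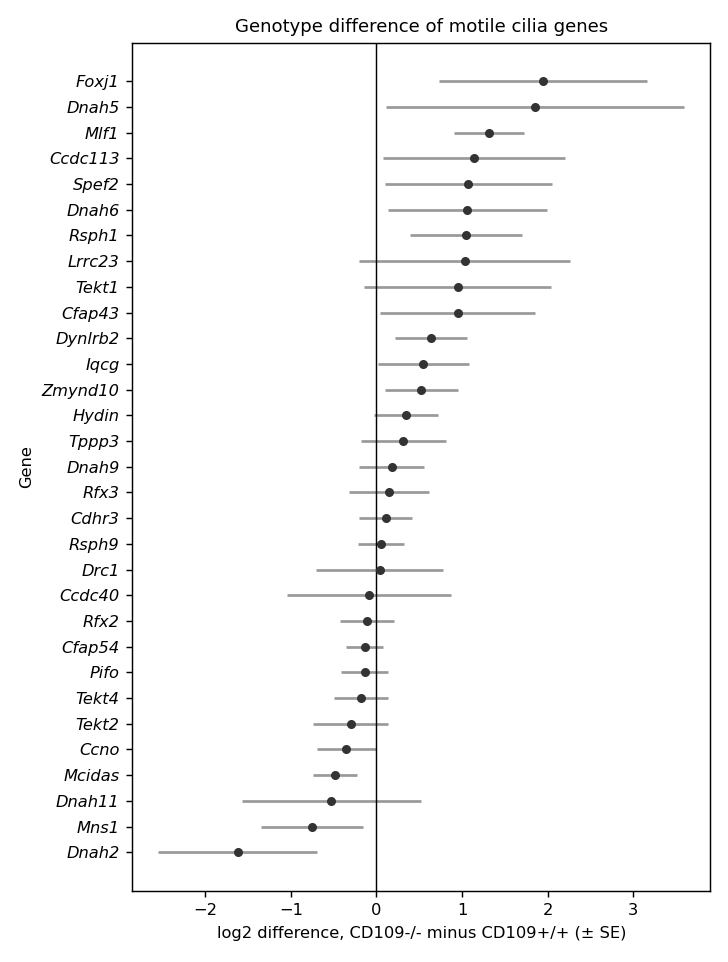
Difference between genotypes (CD109-/- minus CD109+/+, log2) for each of the 31 tested motile cilia genes, with points for the difference and bars for ± 1 limma SE (n = 2 per genotype). Differences run from -1.62 in Dnah2 to 1.95 in Foxj1, and the bars of the widest-ranging genes are longest.

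**Figure D4:**
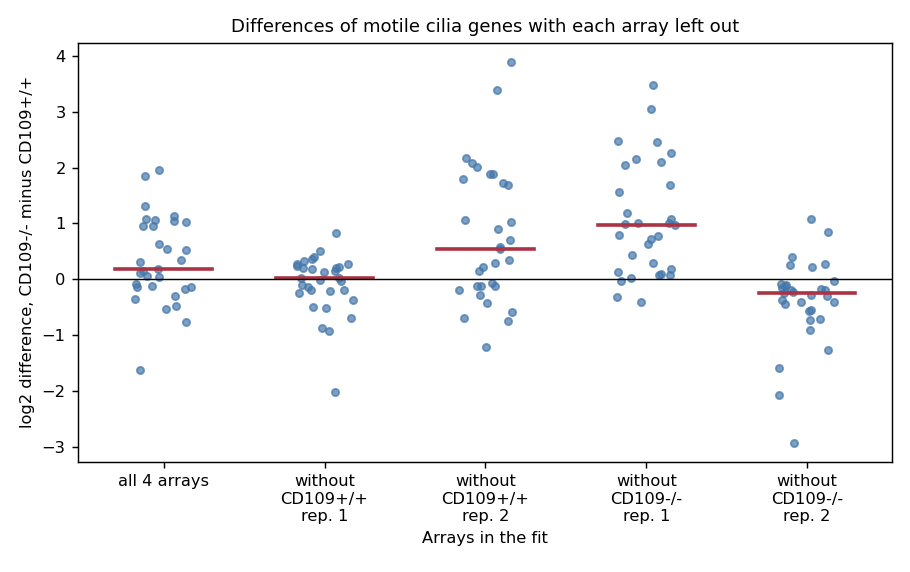
Difference between genotypes (log2) for the same 31 genes, 1 point per gene, with all 4 arrays and with each array left out in turn; red lines are medians and the sideways scatter of points has no meaning. The median is 0.18 with all arrays, 0.98 when CD109-/- replicate 1 is left out and -0.24 when replicate 2 of that genotype is.

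The 7 genes with a probe that were not tested were dim. Their brightest probes were Ccdc39 (the partner of Ccdc40 in the ruler), Cfap44, Rsph4a, Sntn, Spag16, Spag17 and Ak7, and for none of them did both arrays of 1 genotype stand well above background. Ccdc39 was well above background on both replicates 2 and on neither replicate 1 (-5.90, -4.37, -6.04 and -3.80). Cfap44, Rsph4a, Sntn and Spag17 were so on CD109-/- replicate 2 alone, where they gave -4.71, -4.53, -5.27 and -5.33. Ak7 was so on CD109+/+ replicate 1 alone at -4.66, and Spag16 on 0 arrays. Over the 38 genes, the brightest probe was well above background for 30 and 32 genes on the CD109+/+ arrays and for 31 and 36 on the CD109-/- arrays. The greatest number was on CD109-/- replicate 2, the array with most of the highest values.

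Other genes of the cilium were then read from wider lists. Among 59 tested of 94 other axonemal and dynein assembly genes, 35 were highest on CD109-/- replicate 2 (59.3%, against 27.4% of all genes). The order of Foxj1 was taken by 16 of these 59 genes, against 5.42% of all genes. Among the 50 that were well above background on all 4 arrays, 10 took it, against 5.36% of such genes overall. Of the 59 genes, 25 and 22 were lowest on CD109+/+ replicate 1 and CD109-/- replicate 1, against 23.6% and 29.5% of all genes. At an unadjusted p under 0.05, 5 were higher in CD109-/- tumours and 0 lower, a share near the 7.41% of all genes, of which 822 were higher and 397 lower. The 5 were Ak8, Cfap45, Cfap69, Dthd1 and Tuba1a. Dthd1 was not well above background on either CD109+/+ array and was tested only through the genotype where it was high. Tuba1a, an alpha-tubulin found in many cell types, differed by 0.63 ± 0.21 and Cfap69 by 1.49 ± 0.40. The list's median difference was 0.14. Dnaaf1 was not well above background on any array, and Dnaic2 (Dnai2), an outer arm intermediate chain, was so on 1 array and was not tested. Its partner chain Dnaic1 (Dnai1) lay between -2.21 and -1.91 on all 4 arrays, a difference of 0.15 ± 0.22. Tubb4b, the beta-tubulin of cilia and other cells, was flat at 4.53, 4.84, 5.02 and 4.76.

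Genes of transport and basal bodies shared by all cilia, including the single primary cilium of most cells, varied less. All 49 were tested, and 29 were highest on CD109-/- replicate 2 (59.2%, against 27.4% of all genes). Their median deviations were -0.13, 0.06, -0.16 and 0.21. Their median difference was 0.05, with 1 gene higher (Arl13b) and 1 lower (Cc2d2a) at an unadjusted p under 0.05, where all genes gave 7.41%. Ift88, a core transport subunit, differed by -0.16 ± 0.26. Of 22 other multiciliation and centriole genes, 17 were tested and 6 were highest on CD109-/- replicate 2 (35.3%, against 27.4% of all genes). Their median difference was 0.08, with 0 at an unadjusted p under 0.05 in either direction with limma (7.41% of all genes) and 0 after adjustment. Deup1, which makes the deuterosomes from which many basal bodies arise, kept the Foxj1 order over a smaller range, from -3.35 to -2.11, and so did Myb (-5.61, -4.34, -4.95 and -3.37), a factor of early multiciliation that was not well above background on CD109+/+ replicate 1. These are the brightest probes, and the other Deup1 and Myb probes were not well above background on any array. Trp73, which acts on Foxj1, differed by -0.11 ± 0.32. Gmnc was not well above background on any array and Foxn4 on CD109-/- replicate 2 alone.

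**Figure D5:**
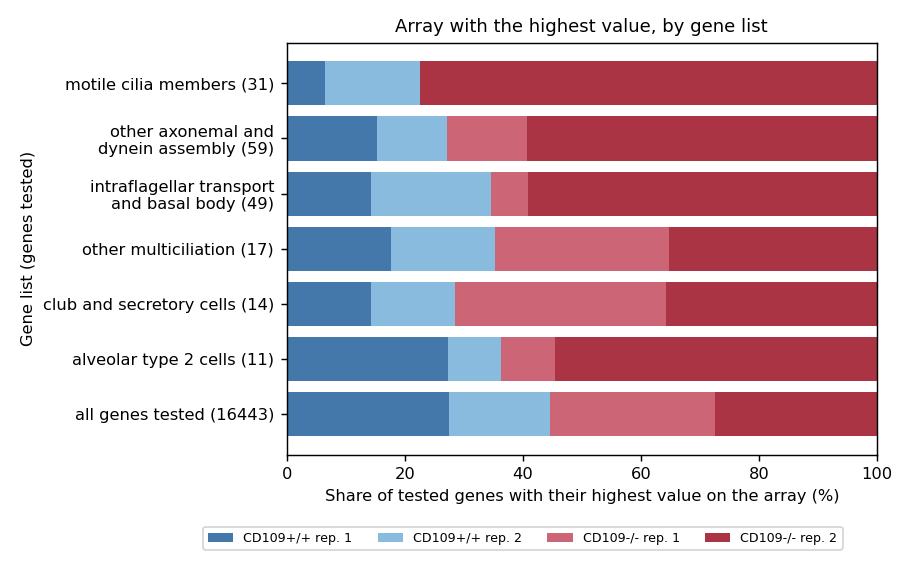
Share of tested genes in each list (percent, horizontal axis) whose highest value fell on each of the 4 arrays, shown as stacked bars, with the number of genes tested in brackets. CD109-/- replicate 2 (dark red) takes 24 of 31 motile cilia genes and 27.4% of all genes, and CD109-/- replicate 1 takes none of the motile cilia genes.

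Markers of the other cells of the airway and lung were read on the same arrays, and their part in the ciliary differences was not tested. Scgb3a2, a secretoglobin of club cells, the secretory cells beside ciliated cells, gave -0.21, 3.81, 2.33 and 4.95, the order of Foxj1. Scgb1a1, the secretoglobin that defines club cells, did not: it gave 5.91, 6.51, 7.49 and 7.79, with both CD109-/- arrays higher (difference 1.43 ± 0.30, limma's adjusted p = 0.507 over all genes). Cyp2f2, a club cell enzyme, gave 4.06, 4.33, 5.15 and 4.75, again higher in both CD109-/- arrays. Of 18 club and secretory genes 14 were tested, 9 with higher and 5 with lower means in CD109-/- tumours. Their median deviations were -0.58, 0.14, 0.32 and 0.13. On each CD109-/- array 5 were highest (35.7%, against 28.0% and 27.4% of all genes on replicates 1 and 2). The genes with lower means were Bpifa1, Bpifb1, Hp, Reg3g and Scgb3a1. Reg3g, a secreted antibacterial lectin, gave -4.15 and -4.93 on the CD109+/+ arrays and was not well above background on either CD109-/- array. It was tested only through the genotype where it was high. Its p (unadjusted p = 0.00716 with limma, limma's adjusted p = 0.507) thus rests on CD109-/- values that were not measured. The 10 pan-airway genes had median deviations of 0.38, -0.66, 0.69 and -0.68. Of them, 7 were highest on CD109-/- replicate 1, against 28.0% of all genes. Sox2, a factor of the airway lineage, gave 0.20, -2.02, 0.46 and -2.68, so both replicates 1 were high where both were low for Foxj1. Basal cell genes, 7 of 8 tested, had median deviations of -0.085, 0.14, -0.14 and 0.086. Krt5, a basal keratin, was highest on CD109-/- replicate 1 at -2.78. The 2 main probes of Trp63 disagreed, one flat between 2.52 and 2.81 and the other from -7.84 to -0.97. The latter probe was well above background on only 2 arrays, so the lower end of its range was not measured. Neuroendocrine genes, 5 of 9 tested, had median deviations of 0.14, -0.10, -0.16 and 0.65. Highest on CD109-/- replicate 2 were 3 neuroendocrine genes, 2 basal genes and 1 pan-airway gene, against 27.4% of all genes.

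Alveolar, stromal and immune markers were read in the same way. Median deviations of 11 alveolar type 2 genes were -0.19, 0.03, -0.03 and 0.22, and of 11 alveolar type 1 genes 0.03, -0.22, -0.26 and 0.53. Endothelial genes (11 tested) had -0.19, -0.29, 0.07 and 0.29. Fibroblast and smooth muscle genes (12) had -0.24, -0.46, 0.36 and 0.17, and macrophage genes (11) -0.31, -0.39, 0.36 and 0.25. T cell genes (7 of 10 tested) had -0.36, -0.34, 0.19 and 0.51. The medians of these last 3 lists, like those of the endothelial list, were higher on both CD109-/- arrays. B cell genes (6 of 7 tested) had -0.23, 0.15, -0.17 and 0.12. On CD109-/- replicate 2, 6 alveolar type 2, 6 type 1 and 8 endothelial genes were highest, against 27.4% of all genes. So were 5 fibroblast and smooth muscle, 4 macrophage, 5 T cell and 2 B cell genes. The genes outside the list with a profile nearest to the median profile of the 31 genes were Dzip3, Chd6, Jade3, H2-DMb1, Il1rap, Zfp862-ps, Mapt, Dnaaf4, Txlng and Rdh18-ps, at distances from 0.05 to 0.14 over the 4 arrays. Of these 10 genes, 1 (Dnaaf4, a dynein assembly factor) stood in a ciliary list.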

How the data were processed

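Total RNA (100 ng per sample, per the labels' protocols) was labelled with Cy3 and read on 1-colour Agilent arrays. The deposited scanner files hold intensity values from Agilent Feature Extraction 12.1.0.3, background-subtracted and detrended within each array but not scaled between arrays, per the file headers. The authors' further value table, also linear intensity, equalled the processed signal times 1 constant per array (1.19, 1.21, 1.04 and 1.08; column medians 58.8, 76.1, 59.5 and 69.2). How these constants were set is unknown here, and the table served only as an alternative. The 4 arrays shared 1 slide and 1 scan.

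Control spots and outlier spots (58 to 73 per array) were left out, spots of a probe were averaged, and log2 signal minus the array's 75th percentile was used. Probes were named by unversioned accession through a RefSeq table (GRCm38.p6): 34558 probes of 23784 genes were named and 22036 were not. A probe was tested when both arrays of either genotype had it well above background, and a gene was read from its brightest tested probe. The genotypes were tested two-sided in R 4.3.3 with limma 3.58.1 (lmFit, eBayes) on all 4 arrays without covariates (2 residual and 2.54 prior degrees of freedom), with Benjamini-Hochberg adjustment over 16443 genes and a threshold of 0.05. The procedure was tested on simulated data.

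The members and the gene lists were chosen with earlier results of these data known. Named genes were all members, a fixed set of other genes, and the 10 nearest profiles; exceptions are stated. Alternatives were normexp (offset 50, on median spot and background signals), quantile and median scaling, the authors' values, other filters, the mean of probes, a block for the replicate number, a variance trend, a threshold of 0.1, and each array left out.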

Additional observations from a re-analysis of the deposited data

How the results depend on the processing

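Arrays gave only 2 samples per genotype, so the number of arrays limits every value. With limma, 0 genes passed an adjusted p under 0.05 under any of the 13 other settings, and 0 at 0.1. Scaling, background, filter, probe and variance settings left the median of the motile cilia genes between 0.14 and 0.26 with 1 gene (Mlf1) at an unadjusted p under 0.05. Filter, variance and block settings do not alter a gene's difference. Scaling, background or the mean of probes altered 191 single-gene values, of list genes and named genes outside the list, and 190 kept their direction. The exception was Rfx3, at -0.47 with the mean of its probes. Median scaling and the authors' values each shift every difference by 1 constant, so there only a difference near 0 could change sign. The count of 190 is therefore largely set in advance for these 2 settings. Sizes held less well. Normexp, which adds an offset of 50 to every signal, brought 26 of the 31 differences nearer to 0 and moved 21 by over 1.5 times, as in Foxj1 (1.01), Dnah5 (0.47), Mlf1 (0.70), Rsph1 (0.48), Spef2 (0.31) and Dnah2 (-0.90).

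Replicate numbers are not stated to pair the samples. The deviations of same-numbered arrays from their genotype means correlated at 0.36 over genes, a single value because each genotype has 2 arrays. With the replicate number as a block, 12 of the 31 genes had an unadjusted p under 0.05 with limma, against 11.5% of all genes. They were Foxj1, Dnah5, Dnah6, Dynlrb2, Rsph1, Lrrc23, Ccdc113, Cfap43, Spef2, Tekt1, Mlf1 and, with lower values, Dnah2. Of these, Dnah5 and Spef2 were tested only through CD109-/- arrays, where their means were higher, and were not measured on CD109+/+ replicate 1. The block fit had only 1 residual degree of freedom. Its median stayed 0.18, and 0 genes passed adjustment with limma.

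Leaving out 1 array, with the lone array of that genotype assumed to vary like the others, gave medians of the 31 genes from -0.24 to 0.98 and 0 to 8 genes at an unadjusted p under 0.05. Of the 31 genes, 8 kept their direction in all 4 such fits, though not their size. For Mlf1, Mcidas and Cfap54 this was set in advance, because genotypes that do not overlap cannot change direction when 1 array is dropped. Such genes made up 20.3% (CD109-/- above) and 18.3% (CD109-/- below) of all genes. The share of all genes that kept direction was not counted, so the 8 cannot be called unusual. Foxj1 ran from 0.51 to 3.39, Mcidas from -0.69 to -0.27, Dnah2 from -2.92 to -0.32 and Dynlrb2 from 0.22 to 1.06. Rsph1 ran from 0.37 to 1.73, Cfap54 from -0.24 to -0.036, Mlf1 from 0.84 to 1.798 and Zmynd10 from 0.027 to 1.03. The other 23 changed direction in at least 1, and their differences ran as follows: Ccno -0.73 to 0.031, Rfx2 -0.42 to 0.20, Rfx3 -0.43 to 0.72, Dnah5 -0.19 to 3.89, Dnah6 -0.030 to 2.15, Dnah9 -0.28 to 0.64, Dnah11 -2.07 to 1.01 and Rsph9 -0.19 to 0.30. Those of the next group were Lrrc23 -0.41 to 2.47, Ccdc40 -1.26 to 1.09, Ccdc113 -0.17 to 2.45, Drc1 -0.90 to 0.98, Iqcg -0.092 to 1.19, Cfap43 -0.15 to 2.05, Spef2 -0.12 to 2.27 and Hydin -0.084 to 0.77. The rest were Tekt1 -0.20 to 2.09, Tekt2 -0.74 to 0.13, Tekt4 -0.54 to 0.18, Mns1 -1.58 to 0.072, Tppp3 -0.37 to 1.00, Pifo -0.41 to 0.13 and Cdhr3 -0.22 to 0.44. Outside the list, the ranges were Trp73 -0.42 to 0.19, Ift88 -0.39 to 0.075, Scgb3a2 -0.17 to 3.85, Trp63 -0.17 to 0.061 and Sox2 -1.77 to 1.37. The cause was not tested.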

Other observations

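The genes nearest to Foxj1 in their profile over the 4 arrays were looked up after its values were seen, as a description with no test. Of the 10 nearest, Stmnd1, Hoatz, Plcd4, Meig1, Armc2 and 1700028P14Rik were not well above background on CD109+/+ replicate 1, so their distance to Foxj1 was not fully measured. The 4 others, measured on all arrays, were 1700007K13Rik (distance 0.24 in log2 units), Cyp2a5 (0.34), Fam47e (0.48) and Ccdc153 (0.52). None of the 10 stood in the ciliary lists used here, which do not hold every ciliary gene, so absence from them does not make a gene non-ciliary. Ccdc153 gave -4.31, -0.87, -1.90 and 0.73 in CD109+/+ replicates 1 and 2 and CD109-/- replicates 1 and 2, beside -5.23, -2.35, -2.93 and -0.75 for Foxj1. Tekt1, the nearest of the other tested motile cilia genes, was at 1.09. Within the 25 nearest genes stood 3 of the wider axonemal list, Dnali1, Fam183b and Spag6l, of which Fam183b was well above background on all 4 arrays.

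Genes of other cells also stood within the 25 nearest. Scgb3a2, from the club cell list, was at 0.87, and Retnla, a secreted protein known from airway epithelium and macrophages, was at 0.69 with values of 2.93, 5.01, 4.87 and 6.57. Cyp2a5, a cytochrome gene of olfactory tissue and lung, gave -4.83, -2.09, -2.76 and -0.82. All 3 genes follow the array order of Foxj1 and belong to no ciliary list.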
